A study of Mus musculus with 4 samples.

Results

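The 6 keratin genes of simple epithelia that are used to follow acinar-to-ductal metaplasia are described across the cell types that arise from acinar cells in the injured mouse pancreas: Krt7, Krt8, Krt18, Krt19, Krt20 and Krt23. They were chosen by name from a table of 32288 genes that also holds 47 other keratin symbols. Values are unique molecular identifier (UMI) counts from single cells, where each UMI stands for a captured RNA molecule. The single-cell libraries came from 4 mice of the genotype Ptf1aCre-ERTM;ROSAYFP/+, backcrossed into CD-1. In these mice tamoxifen (5 mg per day, 5 days per week, for 2 weeks) turns on a Cre recombinase from the Ptf1a gene, which is active in acinar cells, and so marks those cells and their progeny with EYFP. Injury began at 10 weeks of age with intraperitoneal caerulein, a peptide that overstimulates acinar cells. It was given on 5 days per week for 2 weeks in 2 mice and for 4 weeks in the other 2 mice. All 4 mice carried both alleles and received both agents, and no uninjured group is among the samples used here. EYFP-positive pancreas cells were sorted and profiled with 10x Genomics 3' chemistry. The names 2-week mouse 1 and 2 and 4-week mouse 1 and 2 follow the order of deposit and pair no mice. Unless stated otherwise, 4 values in a row are given in that order.

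Keratins build the intermediate filaments of epithelial cells as obligate pairs of a type II and a type I protein. Krt7 and Krt8 are type II members, and Krt18, Krt19, Krt20 and Krt23 are type I members. Acinar cells of the normal pancreas are known to use mainly the Krt8 and Krt18 pair, while Krt7 and Krt19 are widely used as markers of duct cells and of acinar-to-ductal metaplasia, the change of acinar cells into duct-like cells during pancreatitis. Krt20 is best known from the surface cells of the gut lining. Krt8 and Krt18 are also among the strongest markers of tuft cells, the rare chemosensory cells that appear in metaplasia.

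The authors named 8 cell types in 13362 cells and 9 subtypes in 2586 tuft and enteroendocrine cells among them. The type names are those of the deposited labels: Acinar, Acinar.Prolif (proliferating), Acinar/MucinDuctal (intermediate), MucinDuctal (mucin-producing duct-like), Ductal-like, Tuft, EEC (enteroendocrine) and Tuft/EEC.Progenitor. The fixed marker lists were in place: the 5 acinar markers summed to between 45689 and 51652 CPM (UMIs per 1000000 UMIs of the mouse and type) in Acinar cells, the 5 tuft markers to between 4213 and 4772 CPM in Tuft cells, and the 5 duct markers to between 15514 and 23072 CPM in Ductal-like cells. The 4 mice gave 2984, 3590, 2814 and 3974 typed cells with 60224505 to 90547790 UMIs. Between libraries, 23 cell barcodes of the typed cells recur. MucinDuctal cells numbered 371, 1388, 961 and 1263 and Tuft cells 83, 665, 212 and 320, fewest in 2-week mouse 1 and most in 2-week mouse 2. 2-week mouse 2 stood apart in its immediate-early genes, which respond within minutes to stress and to tissue dissociation. They summed to 1710 CPM in its Acinar cells against 802, 372 and 456 CPM in the other 3 mice. On unscaled CPM, Krt7, Krt19 and Krt20 were highest in 2-week mouse 2 in 7 of 7 types with at least 20 cells in each mouse. Krt8 was highest there in 6, Krt18 in 4 and Krt23 in 0 of them. On CPM scaled by edgeR's TMM factors, Krt19 was highest there in 7 of 7 types and Krt7 in 5. For the comparison of 4 with 2 weeks, values without each mouse are therefore given where they differ.

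The 6 genes lie in the mouse's keratin clusters. In GRCm38, Krt7 spans chr15:101411043-101430313, Krt8 chr15:101996698-102004482 and Krt18 chr15:102028180-102032027. Krt18, a type I gene, thus sits beside type II genes, with its start 23698 bases from that of Krt8 and on the opposite strand, so that both are read away from the gap between them. Krt19 (chr11:100140810-100148665), Krt20 (chr11:99428403-99438150) and Krt23 (chr11:99477974-99493137) share chromosome 11, all on the minus strand. Krt7 overlaps the antisense gene Gm671, which had 252 UMIs in all typed cells, and Krt8 overlaps the long noncoding RNA Gm36026, which had 107. RefSeq promoters were matched for 5 of the 6 members. Those of Krt8 and Krt18 are shown because the levels of these genes moved together over the cell types, and that of Krt20 because it was the least abundant member. Each runs 5′ to 3′ on the gene's strand (GRCm38.p6) and stops before the first annotated exon. The stretches are chr15:102004483-102004592 (minus strand) for Krt8, chr15:102027966-102028179 (plus) for Krt18 and chr11:99438154-99438403 (minus) for Krt20, and capitals mark the matches named next.
Krt8: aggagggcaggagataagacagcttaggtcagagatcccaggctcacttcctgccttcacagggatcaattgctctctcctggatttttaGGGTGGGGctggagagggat
Krt18: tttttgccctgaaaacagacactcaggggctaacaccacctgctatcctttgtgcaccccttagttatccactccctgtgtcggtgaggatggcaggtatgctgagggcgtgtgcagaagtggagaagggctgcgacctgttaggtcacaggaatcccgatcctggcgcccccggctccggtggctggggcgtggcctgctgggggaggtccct
Krt20: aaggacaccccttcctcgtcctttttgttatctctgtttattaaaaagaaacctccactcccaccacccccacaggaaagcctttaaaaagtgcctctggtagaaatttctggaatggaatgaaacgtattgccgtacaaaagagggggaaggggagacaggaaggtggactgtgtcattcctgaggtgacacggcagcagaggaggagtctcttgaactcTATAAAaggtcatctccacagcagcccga
The capitals in Krt8 are the reverse complement of CCCCACCC, a CACCC box, which 9.05% of 32851 RefSeq promoters hold within the 250 bases before their start. The capitals in Krt20 read TATAAA and are found in 12.4% of those promoters. On either strand of the same window, Krt18 held neither of these and neither of the other motifs searched, the GC box GGGCGG (32.7% of promoters) and the AP-1 site TGANTCA (6.75%). These are matches of letters only.

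All 6 keratins were detected in typed cells. Krt8 and Krt18 were highest in Tuft cells, Krt7 in EEC cells and Krt19 in MucinDuctal cells, while Krt23 was highest in Tuft and Ductal-like cells and Krt20 was near the detection limit in 3 of 4 mice. Levels are CPM of the summed UMIs of a mouse and type, given as mean ± SD over mice, and 3' UMI counts were not divided by transcript length. Which genes the authors' types rest on is not given in the sources used here and may include keratins. Differences between types are therefore described and not tested. The plot of levels by cell type shows every mouse.

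**Figure D1:**
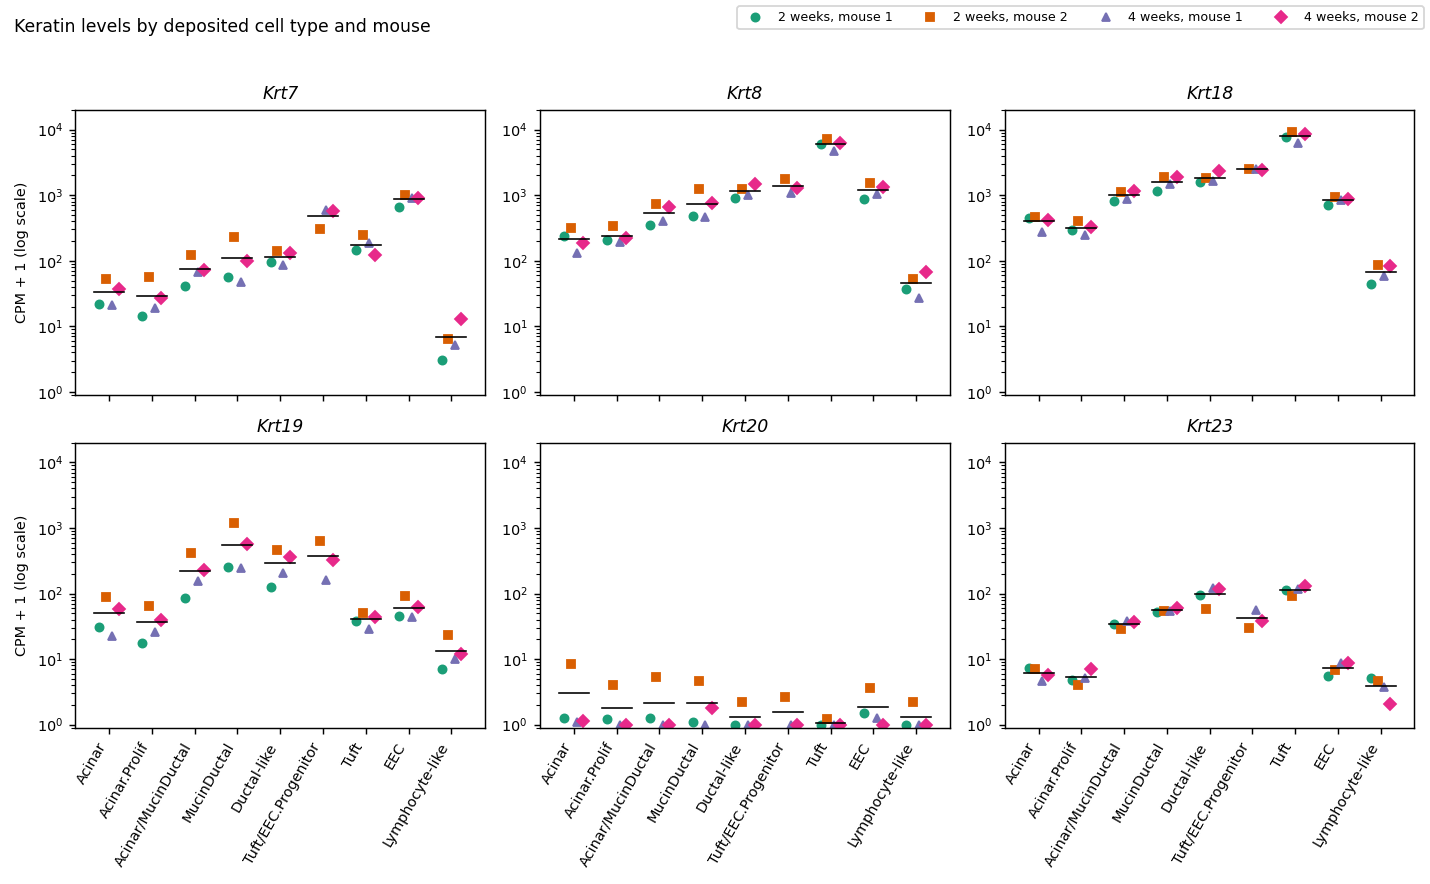
CPM + 1 (log scale) of the 6 keratins in each deposited cell type, 1 point per mouse with at least 20 cells and a bar at the mean. The last column holds lymphocyte-like cells, which have no deposited type. Krt8 and Krt18 reach 6001 and 7908 CPM on average in Tuft cells, Krt7 871 CPM in EEC cells and Krt19 556 CPM in MucinDuctal cells.

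Of the type II members, Krt8 had 237, 310, 128 and 186 CPM in Acinar cells. In Tuft cells it had 5937, 7076, 4717 and 6273 CPM, so that every Tuft value lay far above every Acinar value. The within-mouse ratio of Tuft to Acinar was 4.85 ± 0.33 on the log2(CPM + 1) scale (SD, n = 4), a geometric mean of 28.9-fold. Below Tuft cells, the Tuft/EEC.Progenitor, EEC and Ductal-like types had 1385 ± 364 (n = 3), 1188 ± 281 and 1164 ± 271 CPM (SD, n = 4) and overlapped between mice. MucinDuctal cells followed with 736 ± 358 CPM and Acinar/MucinDuctal cells with 538 ± 193 CPM. Acinar.Prolif cells, at 241 ± 67.4 CPM, overlapped Acinar cells, at 215 ± 77.4 CPM.

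Krt7, the partner used as a duct marker, did not peak in the duct-like types. In EEC cells it had 664, 1016, 907 and 895 CPM, above every value of every other type. Tuft/EEC.Progenitor cells came next with 301, 588 and 564 CPM in the 3 mice with at least 20 such cells, and did not overlap EEC or Tuft cells. Tuft (174 ± 53.7 CPM), Ductal-like (113 ± 26.7 CPM) and MucinDuctal cells (108 ± 83.7 CPM) overlapped each other. Acinar cells had 20.6, 50.9, 20.4 and 35.7 CPM. The EEC to Acinar ratio was 4.81 ± 0.48 on the log2 scale, 28.1-fold, while that of MucinDuctal to Acinar was 1.54 ± 0.42, 2.91-fold.

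Of the type I members, Krt18 was found in every type. Its Acinar values were 448, 466, 278 and 416 CPM and its MucinDuctal values 1139, 1924, 1469 and 1926 CPM. Tuft cells had 7672, 9145, 6349 and 8466 CPM. The ratio to Acinar cells was 4.31 ± 0.17 in Tuft, 2.21 ± 0.38 in Ductal-like, 2.00 ± 0.46 in MucinDuctal and 1.10 ± 0.39 in EEC cells on the log2 scale. Acinar cells and EEC cells did not overlap, and Acinar.Prolif cells were below Acinar cells in 4 of 4 mice, with a log2 ratio of -0.34 ± 0.20.

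Krt19 had its highest level in MucinDuctal cells, with 250, 1169, 242 and 562 CPM. The value of 2-week mouse 2 was more than the other 3 mice reached in any type. Acinar cells had 29.8, 88.4, 21.3 and 58.0 CPM, in the same order of mice. Within each mouse the ratio was therefore steadier than the levels, at 3.36 ± 0.29 on the log2 scale or 10.3-fold. Tuft/EEC.Progenitor cells followed with 626, 162 and 321 CPM in 2-week mouse 2 and the 4-week mice, overlapping MucinDuctal cells. Ductal-like cells had 288 ± 150 CPM and Acinar/MucinDuctal cells 219 ± 141 CPM, above Acinar cells in 4 of 4 mice. Both types differed in depth between mice: the median UMIs per cell were 3387, 19556, 2659 and 3555 in Acinar/MucinDuctal and 31156.5, 38505.5, 8889 and 21039 in Ductal-like cells, and 2-week mouse 2 was the highest in depth and in Krt19 in each. The part of depth in these values and in their change over time was not tested. Tuft cells, where Krt8 and Krt18 peaked, had 39.4 ± 8.96 CPM of Krt19 and did not stand above Acinar cells (log2 ratio -0.14 ± 0.59, higher in 2 of 4 mice).

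Krt23, a less studied type I keratin, was low in acinar and enteroendocrine cells and higher in the other types. Acinar cells had 6.35, 6.16, 3.56 and 4.77 CPM and EEC cells 4.44, 5.73, 7.63 and 7.84 CPM, which overlap. Tuft cells had 113, 90.8, 115 and 132 CPM, Ductal-like cells 94.3, 58.0, 122 and 118 CPM, and MucinDuctal cells 51.7, 53.5, 52.8 and 60.2 CPM. The log2 ratio to Acinar cells was 4.21 ± 0.47 in Tuft, 3.97 ± 0.76 in Ductal-like and 3.18 ± 0.35 in MucinDuctal cells. The Acinar values lay close to the 4.11, 3.66, 2.75 and 1.10 CPM of lymphocyte-like cells (cells without a deposited type that should lack keratins), and the ratios depended on the pseudocount: with 10 in place of 1 CPM they were 3.01, 2.79 and 2.09.

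Krt20 gave 21, 333, 4 and 24 UMIs in all typed cells of the 4 mice. In Acinar cells it had 0.279, 7.43, 0.115 and 0.140 CPM, and was found in 0.821%, 13.6%, 0.394% and 0.561% of cells. 2-week mouse 2 alone had more than 1 CPM of it in any type. In 4-week mouse 1, MucinDuctal cells gave no Krt20 UMI, and Acinar.Prolif and Acinar/MucinDuctal cells gave none in either 4-week mouse.

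Acinar cells spend much of their RNA on digestive enzymes, which lowers the CPM of every other gene there. With the 31 enzyme genes of a fixed list left out of the totals, the log2 ratio to Acinar cells fell in all 15 pairs of the 5 detected keratins (Krt20 left out) with MucinDuctal, Tuft and EEC cells. Krt18 in EEC cells then had a ratio of 0.01 and Krt19 and Krt23 in EEC cells ratios of -0.64 and -0.70, while Krt7 in EEC cells stayed at 3.76, Krt8 in Tuft cells at 3.76 and Krt19 in MucinDuctal cells at 2.30. The same scale was used to order cells of the Acinar, Acinar/MucinDuctal and MucinDuctal types by the share of their UMIs that came from enzymes. In cells with under 5% enzyme UMIs, Krt19 had 232, 1179, 253 and 581 CPM of the non-enzyme UMIs. In cells with 60% or more, it had 32.5, 108, 26.0 and 86.3. Krt23 differed in the same direction in every mouse, with 51.1, 54.1, 54.7 and 60.5 against 9.81, 6.22, 7.93 and 9.88. Krt18 differed less, with 1163, 1946, 1516 and 1990 against 598, 785, 505 and 675. Krt8 had 457, 1234, 488 and 786 against 297, 438, 222 and 300. Krt7 had 49.6, 226, 50.5 and 103 against 25.5, 61.4, 43.6 and 60.1. The highest values were not always in the cells with under 5%. In 2-week mouse 1, cells with 5 to 20% enzyme UMIs had 721 for Krt8, 88.3 for Krt7, 1263 for Krt18 and 240 for Krt19. In 4-week mouse 2, Krt8 had 857 and Krt7 105 at 20 to 40%, and Krt23 had 66.7 at 5 to 20%. In 2-week mouse 2 the 5 detected keratins were all highest in cells with under 5%. In 4-week mouse 1 Krt7 was nearly flat, with 57.8 in cells with 40 to 60% enzyme UMIs. Krt20 went the other way in 2-week mouse 2, from 3.61 to 35.8 CPM of the non-enzyme UMIs.

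The make-up of the keratin pool set EEC cells apart from the other types. The 6 keratins together came to 705 ± 196 CPM in Acinar, 3069 ± 1197 in MucinDuctal, 3508 ± 737 in Ductal-like, 2973 ± 526 in EEC and 14235 ± 2195 CPM in Tuft cells. Krt18 made up 57.9 ± 5.23% of the keratin UMIs in Acinar, 55.1 ± 9.62% in MucinDuctal and 55.6 ± 0.567% in Tuft cells, but 28.8 ± 2.13% in EEC cells. There Krt8 held 39.7 ± 2.90% and Krt7 29.3 ± 1.69%. Type II keratins therefore gave 69.0 ± 1.81% of the keratin UMIs in EEC cells, against 26.7 ± 3.93% in MucinDuctal, 34.5 ± 3.17% in Acinar and 43.3 ± 0.702% in Tuft cells. Acinar.Prolif cells, whose keratins came to 626 ± 170 CPM, had a type II share of 42.8 ± 2.37% that overlapped that of Tuft cells. Krt19 took 16.3 ± 6.52% in MucinDuctal and 0.275 ± 0.0220% in Tuft cells. The ratio of Krt8 to Krt18 UMIs was above 1 in EEC cells, at 1.39 ± 0.20, and below 1 in the other 7 types, with 0.758 ± 0.0184 in Tuft and 0.444 ± 0.139 in MucinDuctal cells. Among the enteroendocrine subtypes it was above 1 in each mouse for EEC-Progenitor, Epsilon and ECL cells, but 0.727 ± 0.0540 in Delta and 0.878 ± 0.125 in Ppy+ cells. How far the capture of these RNAs differs was not tested, so the shares compare types and not protein amounts.

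**Figure D2:**
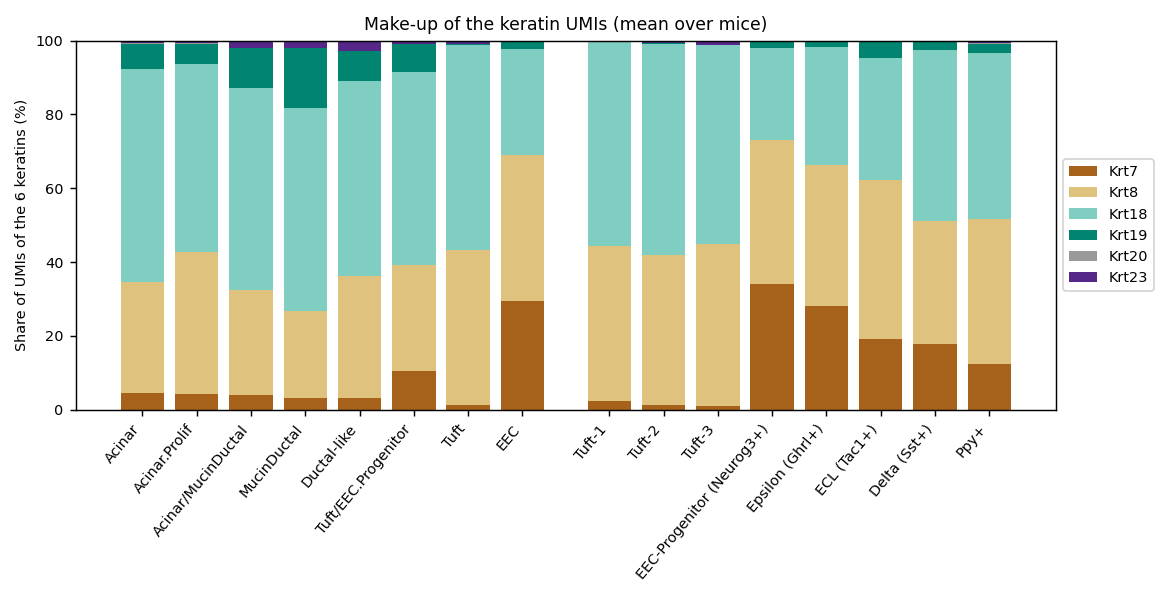
Share of the UMIs of the 6 keratins (%) taken by each keratin, as stacked bars of the mean over mice, for each deposited type and subtype except MucinDuctalProgenitor. Krt18 takes 55.6% in Tuft and 28.8% in EEC cells, where Krt7 takes 29.3%.

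Shares of cells with at least 1 UMI followed the depth of the cells as well as the levels. At full depth Krt18 was found in 95.7 ± 1.87% of Acinar cells, Krt7 in 92.4 ± 2.85% of EEC cells and Krt19 in 86.7 ± 8.32% of MucinDuctal cells (SD, n = 4). In 1036 lymphocyte-like cells of the same libraries, chosen among cells without a type by Ptprc and lymphocyte markers, the shares were 20.7 ± 8.39% for Krt18, 2.30 ± 1.11% for Krt7 and 5.19 ± 4.11% for Krt19. Those cells should lack keratins, but had a median of 3034 to 4059 UMIs against 13464 to 20807 in typed cells. With each cell thinned to 1500 UMIs, Krt18 was found in 31.5 to 44.9% of Acinar cells and in 5.39 to 12.4% of lymphocyte-like cells over the mice. Krt7 was found in 50.1 to 65.8% of EEC cells against 0.274 to 1.495%, and Krt19 in 24.2 to 64.4% of MucinDuctal cells against 0.860 to 3.82%. For Krt23 in Acinar cells the thinned share of 0.723 to 0.915% lay just above the 0 to 0.708% of lymphocyte-like cells. How background differs between deep and shallow cells was not tested.

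At equal depth most EEC cells with either gene had Krt7 alone, and most MucinDuctal cells with either had Krt19 alone. In EEC cells thinned to 1500 UMIs, 46.8 to 57.8% had Krt7 without Krt19, 2.21 to 3.39% had Krt19 without Krt7, and 3.27 to 8.01% had both. In MucinDuctal cells 20.2 to 46.6% had Krt19 without Krt7, 3.02 to 3.97% had Krt7 without Krt19 and 3.30 to 17.8% had both. The ranges are over the 4 mice, and 2-week mouse 2 had the highest share with both in each type. In both types the share with both was above the product of the 2 single shares in 4 of 4 mice. The products were 3.09 to 7.23% in EEC and 1.69 to 14.0% in MucinDuctal cells. The same held in Acinar, Acinar/MucinDuctal and Tuft cells, but not in every mouse of the other types. EEC cells pool subtypes that differ in Krt7. Within EEC-Progenitor cells 6.33, 10.1, 6.35 and 8.58% had both, against products of 6.44, 10.6, 6.34 and 9.46%. ECL cells were above the product in each mouse, while Epsilon, Delta and Ppy+ cells were not.

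MucinDuctal cells fall into the authors' clusters 1 and 2, and the mice held them in unequal parts. Cluster 1 made up 30.5%, 82.0%, 23.7% and 43.6% of the MucinDuctal cells. Its cells were richer in Spp1, a duct marker (8485 to 17180 against 4588 to 6587 CPM), and cluster 2 in Tff2, the trefoil factor of gastric mucous neck cells (49194 to 63894 against 2967 to 5583 CPM). Cftr, another duct gene, did not follow Spp1. It had 13.74 to 46.85 CPM in cluster 1 and 13.80 to 81.04 CPM in cluster 2. Only in 4-week mouse 2 was Cftr higher in cluster 1, with 25.37 against 24.13 CPM. Krt19 had 686, 1385, 786 and 1091 CPM in cluster 1 and 95.2, 236, 124 and 171 CPM in cluster 2, with no overlap. Krt7 likewise had 165, 268, 125 and 196 CPM against 18.2, 61.1, 30.4 and 27.0 CPM, and Krt8 1024, 1400, 1089 and 1269 CPM against 298, 514, 325 and 385 CPM. Krt18 and Krt23 differed less, with means of 2068 ± 402 against 1301 ± 218 CPM and 73.4 ± 12.8 against 45.0 ± 2.01 CPM (SD, n = 4). The clusters come from the same cells, and keratins may have taken part in making them, so this is a description. Msln, which mesothelial cells also express, had 105 to 179 CPM in cluster 1 and 8.47 to 22.1 CPM in cluster 2, while the mesothelial genes Wt1 and Lrrn4 were at or near 0 in both.

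**Figure D3:**
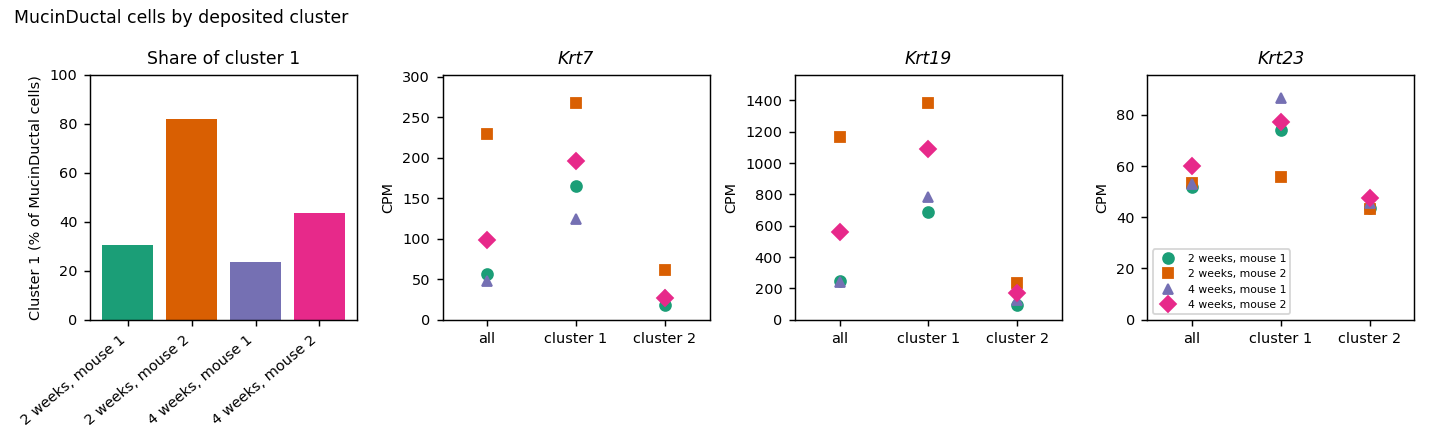
Left: share of MucinDuctal cells in the authors' cluster 1 (%), a bar per mouse, from 23.7 to 82.0%. Other panels: CPM of Krt7, Krt19 and Krt23 in all MucinDuctal cells, cluster 1 and cluster 2, a point per mouse, where Krt19 has 686 to 1385 CPM in cluster 1 and 95.2 to 236 CPM in cluster 2.

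Within the enteroendocrine cells Krt7 was graded by subtype. EEC-Progenitor (Neurog3+) cells, which express the gene that starts endocrine differentiation, had 1401, 1421, 1890 and 1694 CPM. Epsilon (Ghrl+) cells had 727, 974, 816 and 833 CPM, ECL (Tac1+) cells 417 ± 90.5 CPM, Delta (Sst+) cells 340 ± 44.9 CPM and Ppy+ cells 175 ± 38.9 CPM. EEC-Progenitor, Epsilon and ECL cells did not overlap each other, and the other 4 enteroendocrine subtypes were below EEC-Progenitor cells in 4 of 4 mice, with log2 ratios from -0.93 ± 0.28 (Epsilon) to -3.20 ± 0.45 (Ppy+). Krt8 was graded less, from 1828 ± 284 CPM in EEC-Progenitor to 570 ± 152 CPM in Ppy+ cells. Krt18 was graded least, from 1174 ± 135 to 664 ± 216 CPM. Type II keratins accordingly gave 73.0 ± 0.730% of the keratin UMIs in EEC-Progenitor and 51.2 ± 2.20% in Delta cells. Krt19 had its highest enteroendocrine mean in ECL cells, at 97.8 ± 29.6 CPM, overlapping EEC-Progenitor cells.

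Among tuft cells, Krt23 was higher and Krt8 and Krt18 were lower in Tuft-3 than in Tuft-2 cells. Krt7 was lower as well (log2 ratio -0.79 ± 0.55, lower in 4 of 4 mice). Krt19 had 20.4, 43.0, 26.1 and 22.9 CPM in Tuft-2 and 4.59, 10.5, 4.97 and 4.14 CPM in Tuft-3 cells. It was lower in Tuft-3 in 4 of 4 mice, where it lay below the 6.16, 22.6, 8.94 and 11.0 CPM of the lymphocyte-like cells of the same libraries. Those cells were shallower, with a median of 3034 to 4059 UMIs against 13621 to 21310 in Tuft-3 cells. How background differs with depth was not tested, so no ratio is given. Krt23 had 100, 114, 96.8 and 110 CPM in Tuft-2 and 139, 134, 138 and 173 CPM in Tuft-3 cells, higher in 4 of 4 mice by 0.46 ± 0.18. Krt18 and Krt8 were lower in Tuft-3 in 4 of 4 mice, with log2 ratios of -0.54 ± 0.17 and -0.35 ± 0.09. Tuft-1 cells reached 20 in 2 mice only, 2-week mouse 2 and 4-week mouse 2. They had 12.5 and 10.2 CPM of Krt23, but 391 and 299.6 CPM of Krt7, above Tuft-2 of the same mouse by 0.83 and 0.90 on the log2 scale. MucinDuctalProgenitor cells reached 20 in the same 2 mice and had 687 and 322 CPM of Krt19, more than any other subtype in any mouse.

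**Figure D4:**
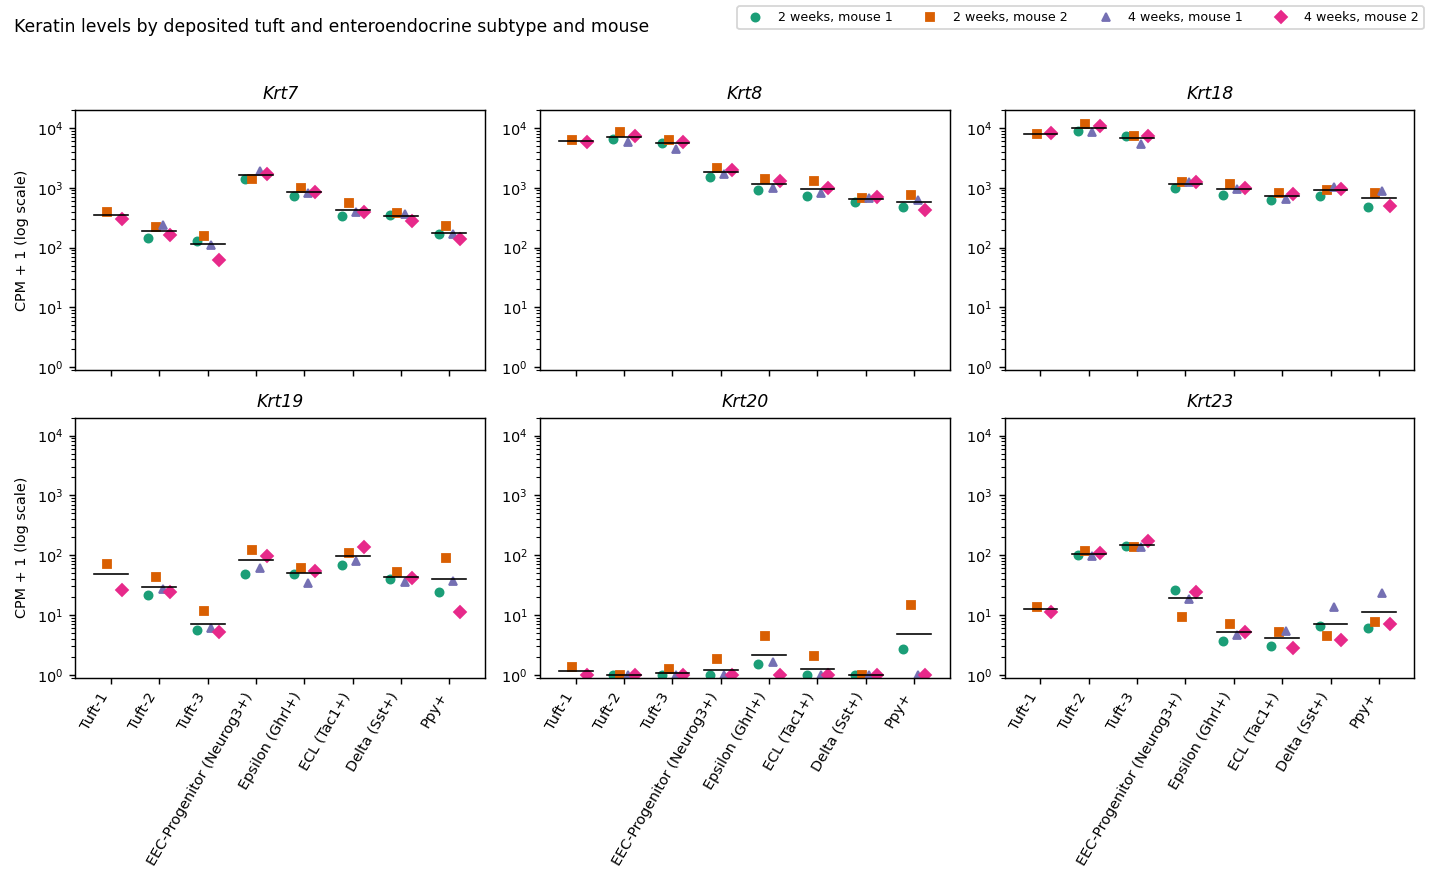
CPM + 1 (log scale) of the 6 keratins in each tuft and enteroendocrine subtype, 1 point per mouse with at least 20 cells and a bar at the mean. MucinDuctalProgenitor cells are not shown. Krt7 steps down from 1601 CPM in EEC-Progenitor to 175 CPM in Ppy+ cells. Krt19 is lowest in Tuft-3 cells at 6.04 CPM, below the CPM of the shallower lymphocyte-like cells.

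Over the 31 sums per mouse and type with at least 20 cells, log2(CPM + 1) of Krt8 and Krt18 had a Pearson r of 0.935 and that of Krt18 and Krt23 an r of 0.863. Krt8 and Krt19 had 0.179. The points share mice and depth, and no p is given. Among 8049 genes with a mean of at least 10 CPM, those most like Krt8 were Igsf8, Slc25a20, Ctnnbip1, Arpc5 and Gnai2 (r from 0.977 to 0.969), and those most like Krt18 were Svbp, Vamp8, Plaat3, Lima1 and Aldh3a2 (0.972 to 0.964). For Krt7 they were Trp53i11, Hes6, Ttyh3, Kdm1a and Tes (0.965 to 0.944), and for Krt19 Rgmb, 2210407C18Rik, Sftpd, S100a6 and Sdc1 (0.931 to 0.915). For Krt23 they were Kcnn4, Smagp, Dsc2, Marc2 and Cd82 (0.969 to 0.956). Krt20, whose values come mostly from 1 mouse, reached 0.862 with Gm10320 and 0.560 with the fifth gene.

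Of 47 further keratin symbols, 23 had no UMI in typed cells and 2 had a mean of at least 10 CPM over the types. Krt17, a stress-linked type I keratin, had 151 ± 123 CPM in Ductal-like and 15.1 ± 16.0 CPM in MucinDuctal cells. Krt10 had 40.9 ± 2.88 CPM in EEC and 5.74 ± 0.946 CPM in Acinar cells. Epcam, an adhesion molecule of epithelia, had 126 ± 42.4 CPM in Acinar, 1610 ± 451 CPM in Ductal-like and 2142 ± 172 CPM in Tuft cells. The desmosomal cadherin Dsg2 had 245 ± 39.3 CPM in Ductal-like and 202 ± 27.5 CPM in Tuft cells, but 35.6 ± 6.12 CPM in EEC cells, close to the 31.7 ± 6.37 CPM of Acinar cells. Vim, the intermediate filament of mesenchymal cells, had 61.8 ± 19.4 CPM in Ductal-like and 53.2 ± 17.7 CPM in EEC cells, against 1.61 ± 0.618 CPM in Acinar cells.

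Between 2 and 4 weeks no keratin passed the test in any cell type. In the 7 types with at least 20 cells in every mouse, 0 of 36 keratin and type pairs had an adjusted p under 0.05 (edgeR quasi-likelihood test, Benjamini-Hochberg), against 1 of 79056 over all genes, or 0.00126%. At an unadjusted p under 0.05 there was 1 pair, against 4.29% of all gene and type pairs. DESeq2 called 0 pairs, with 3 at an unadjusted p under 0.05, 1 each in Acinar, Acinar.Prolif and Acinar/MucinDuctal cells. There, 301 of 19275, 119 of 17019 and 202 of 18621 genes with any UMI had such a p by DESeq2. In the 7 subtypes tested, 0 of 31 pairs passed, against 0.0564% of all genes, and 0 were called by DESeq2. At an unadjusted p under 0.05 by edgeR there were 2, against 5.28% of all gene and subtype pairs. In these subtypes both 4-week mice lay above both 2-week mice in 5 pairs and below in 2 pairs of the 31, against 17.2% of all gene and subtype pairs in each direction. The mouse was the replicate, with n = 2 per time point.

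In the 7 types, Krt23 was the member whose values separated the time points most often. On CPM scaled by edgeR's TMM factors, both 4-week mice lay above both 2-week mice in 6 of its 7 types, the exception being Acinar cells. Over all genes 16.5% of gene and type pairs were separated in that direction and 17.1% in the other, and among MucinDuctal cells alone 18.5% in that direction. The types share the same 4 mice, so the 6 are not independent. In the subtypes Krt23 overlapped in 3 of 3 tested, while Krt7 was separated in 3 of 7. On unscaled CPM Krt23 was above in 5 types and below in Acinar cells, against 9.37% of all pairs above and 29.6% below. The size was +0.70 (SE 0.26) on the log2 scale in Ductal-like cells (91.7, 58.8, 127 and 115 scaled CPM, adjusted p = 0.900 by edgeR), +0.69 in EEC, +0.34 in Acinar/MucinDuctal, +0.29 in Tuft and +0.22 in MucinDuctal cells, and -0.15 in Acinar cells. No size is given for Acinar.Prolif cells, whose 2-week values of 3.87 and 3.01 unscaled CPM lay below the lymphocyte-like cells of the same libraries. The 2-week EEC mean of 5.08 unscaled CPM lay near the 4.11 and 3.66 CPM of those lymphocyte-like cells. Acinar cells also lay close to those lymphocyte-like values, and how background differs with depth was not tested. The 6 separated types include Acinar.Prolif and EEC cells. In Tuft cells the nearest values of the time points were 113.3 and 113.9 scaled CPM. Ductal-like cells numbered 23 and 22 in the 4-week mice. Without 2-week mouse 2 the sign of the Krt23 change was positive in 6 and negative in 1 of 7 types. Without 2-week mouse 1, Krt23 passed the test in Ductal-like cells at +1.03 (adjusted p = 0.0190, edgeR), where 3.11% of all genes in that type were called, and without 2-week mouse 2 the change was +0.39.

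On scaled CPM, among the pairs that passed the filter on low counts, the other members overlapped between the time points in all but 1 pair. On unscaled CPM with no filter, both 4-week mice lay below both 2-week mice in 4 of 7 types for Krt20 and in 1 type each for Krt8 and Krt18. Of all gene and type pairs that passed the filter, 29.6% lay below. Only 1 Krt20 pair passed it, so the Krt20 count has no share on the same basis. Krt8 in Acinar cells was below in both 4-week mice, with 225, 238, 156 and 209 scaled CPM and a change of -0.34 (SE 0.27), or -0.14 without 4-week mouse 1 and -0.56 without 4-week mouse 2; in Acinar cells 17.2% of all genes tested lay below in both. Krt19 in MucinDuctal cells had a change of -0.68 (SE 0.81) and Krt7 one of -0.84 (SE 0.73), in a type whose cluster 1 share ran from 23.7 to 82.0% between mice. Within cluster 1 the changes were -0.10 (SE 0.39) for Krt19 and -0.38 (SE 0.36) for Krt7, and within cluster 2 -0.08 (SE 0.53) and -0.38 (SE 0.70). Without 2-week mouse 2, Krt19 and Krt7 in all MucinDuctal cells had changes of +0.77 and +0.46. Krt20 fell in Acinar cells by 4.19 on the log2 scale once the filter on low counts was dropped (adjusted p = 8.2e-13, edgeR; 1.48% of all genes were called), a difference carried by the 129 UMIs of 2-week mouse 2 against 14, 3 and 5 in the others. In the subtypes Krt7 came closest, in Tuft-3 cells, with 127, 158, 109 and 60.2 scaled CPM and -0.79 (SE 0.28, adjusted p = 0.651). It passed without 2-week mouse 1, at -0.93 (adjusted p = 0.0284, edgeR), where 2.91% of all genes in Tuft-3 cells were called. Without 4-week mouse 1 the change was -1.26 and without 4-week mouse 2 it was -0.41. In EEC-Progenitor cells Krt7 had +0.30 (SE 0.14, adjusted p = 0.967), with both 4-week mice above both 2-week mice.

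**Figure D5:**
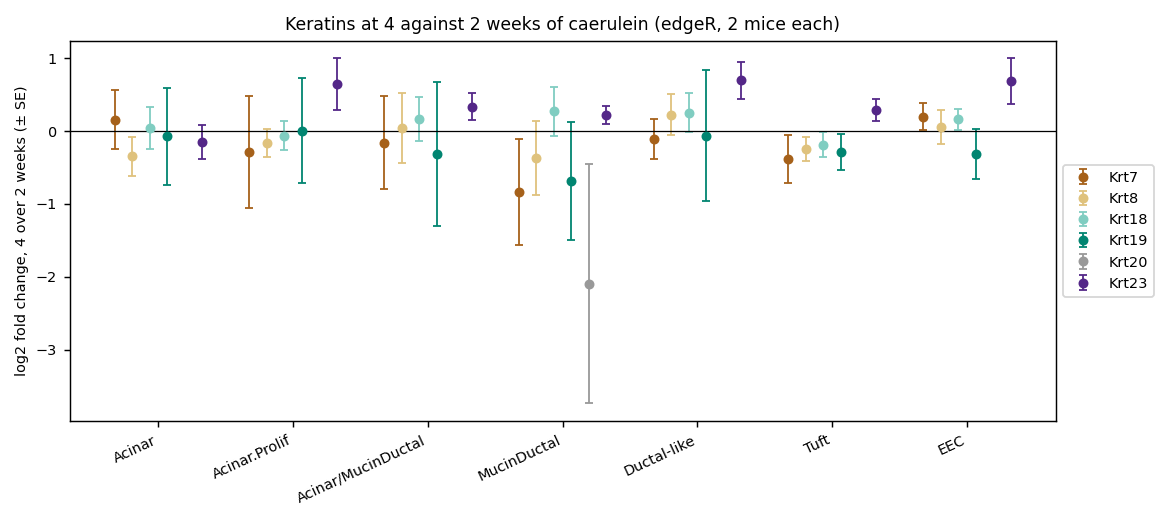
log2 fold change at 4 against 2 weeks of each keratin in 7 cell types (edgeR, points; bars are ± 1 SE; 2 mice per time point), with Krt20 shown where it passed the filter on low counts. Krt23 is positive in 6 of 7 types, of which Acinar.Prolif and EEC cells lay near the CPM of lymphocyte-like cells at 2 weeks. No keratin passes the test.

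Whether Acinar and MucinDuctal cells changed differently over time was asked in a joint fit of both types, with each mouse as a block and an interaction of type and time. The term passed for 0 of the 6 keratins and for 0 of 14098 genes, or 0.0%, with 1 keratin and 430 genes at an unadjusted p under 0.05 and 0 genes by DESeq2. Krt7 had the smallest p, with a difference (Acinar minus MucinDuctal) of 0.85 (SE 0.34, adjusted p = 1.0). Without 2-week mouse 1 the differences of Krt7 (1.32, adjusted p = 6.7e-05) and Krt19 (0.83, adjusted p = 0.0423, edgeR) passed, in a fit that called 6.54% of all genes, and without 2-week mouse 2 that of Krt7 was 0.30 (adjusted p = 0.749) and that of Krt19 -0.14, where 0.648% of all genes were called.

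Shares of keratin-positive cells were compared with the exact permutation test, two-sided, which cannot go below p = 0.333 with 2 against 2 mice. In 15 of 42 pairs of keratin and type the time points did not overlap, 13 of them among the 36 pairs that passed the filter on low counts, against 59.1% of all gene and type pairs that passed it. After thinning, with each gene's share taken as its expected value, 6 of those 36 did not overlap, against 38.4% of all pairs that passed. By random draws it was 8 of the 42. Of the lists around the keratins, summed over the 7 types, edgeR called 0 of 23 pairs for other keratins (1 at an unadjusted p under 0.05), 0 of 102 for desmosomal and plakin genes (3), 0 of 43 for other intermediate filaments (4), 0 of 70 for duct genes (6), 0 of 192 for acinar enzymes (15) and 1 of 83 for immediate-early genes (19), and DESeq2 called 0, 0, 0, 1, 1 and 4. Over all genes 4.29% of pairs had an unadjusted p under 0.05 by edgeR and 0.153% were called by DESeq2. The 1 call was the stress-response factor Atf3 in Acinar.Prolif cells, which fell by 2.39 on the log2 scale. A fit that is not robust called 0 of 79056 pairs over all genes, so this call was lost. In the subtypes edgeR called 4 of 168 pairs for acinar enzymes, all lower at 4 weeks, against 0.0564% of all pairs in either direction (Rnase1 and Sycn in ECL, Cpb1 and Try10 in Ppy+ cells), and 0 for the other 5 lists, and DESeq2 called 8 for the enzymes, 1 for duct genes and 0 for the rest, against 0.0722% of all pairs. A fit that is not robust called 0 genes lower in ECL and in Ppy+ cells, so the 4 enzyme calls were lost. Without the cells of highest UMIs, 0 genes were called lower in ECL cells. Lymphocyte-like cells also held enzyme UMIs, and the enzyme levels of ECL and Ppy+ cells were not compared with that background. Atf3 and the 4 enzymes called are named after their values were seen. In Acinar cells 15 of 30 enzymes tested lay above in both 4-week mice, against 14.0% of all genes, and 11 of 12 immediate-early genes lay below, against 17.2%. The median change was 0.60 for the enzymes and -1.55 for the immediate-early genes, against -0.03 over all genes and -0.07 over the keratins. Their part in the keratin values was not tested. Without 2-week mouse 2 the medians in Acinar cells were 0.29 for the enzymes, -0.58 for the immediate-early genes and -0.07 for the keratins. Without 2-week mouse 1 the enzyme median was 1.07 and the keratin median -0.27, and the keratin median was 0.14 without 4-week mouse 1 and -0.43 without 4-week mouse 2. In MucinDuctal cells the 6 keratins had a median change of -0.52 and the immediate-early genes one of -0.47, against -0.01 over all genes. Without 2-week mouse 2 both turned, to 0.56 and 0.30, and with another mouse left out they ran from -1.12 to -0.12 and from -0.97 to -0.36.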

How the data were processed

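The samples are single-cell libraries of EYFP-sorted pancreas cells, 2 mice per time point. The tables deposited by the authors hold raw counts of UMIs for each cell, not normalized, beside their cell type and cluster labels. Per the submitters' processing notes Cell Ranger 4.0.0, Seurat 3.2.3 and mm10 were used; the filters and the way types were named are not given in the sources used here. The sample name in each cell name gave the mouse. For every mouse and every deposited type or subtype the UMIs were added up, and levels used where the mouse had at least 20 such cells. Of 21140 cells in the merged table, 7778 have no type.

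Time points were compared with edgeR 4.0.16 (TMM, filterByExpr, robust quasi-likelihood test) under R 4.3.3 over all genes of a type, with Benjamini-Hochberg adjustment at 0.05, in 7 types and 7 subtypes with at least 20 cells in every mouse. Between types no test was made. Thinning drew 1500 UMIs per cell in 20 draws and left out shallower cells. Shares have 95% exact binomial intervals in the tables, which cover counting error only. No doublet caller was run; cells above the 95th percentile of UMIs were left out as an alternative. The fits were tested on simulated counts, where the interaction of type and time recovered far fewer of the planted changes than the fits of single types. The simulated types of a mouse shared no mouse effect, unlike the real ones. Only rises were planted for the interaction, but rises and falls for single types. How much the real interaction fit can find is therefore not known from them. The other alternatives were DESeq2 1.42.0, no filter, a fit that is not robust, totals without enzymes, a pseudocount of 10 CPM in place of 1, at least 2 UMIs, shares averaged over cells, each mouse left out, and, added after the data were seen, each MucinDuctal cluster alone.

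The members and gene lists were chosen with earlier results of these data known. All 6 members were to be named, with other genes by list, by highest mean level, or as the 5 genes most correlated with a member. Promoters and gene positions come from RefSeq and GENCODE tables of GRCm38.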

Additional observations from a re-analysis of the deposited data

Results flagged for a closer look

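The cells without a deposited type take no part in the comparisons, yet they held keratin UMIs. In the 6742 such cells that are not lymphocyte-like, the mean over the 4 mice was 558 CPM for Krt18, 389 CPM for Krt8, 139 CPM for Krt19, 71.9 CPM for Krt7 and 20.5 CPM for Krt23. Each of these 5 was above the lymphocyte-like cells of the same library in 4 of 4 mice, for instance 402, 619, 582 and 631 CPM against 43.1, 84.3, 58.4 and 82.6 CPM for Krt18. Krt20 had 0 UMIs in the lymphocyte-like cells of 3 mice, which allows up to 2.06 to 3.30 CPM there, so its level was not compared. The cells without a type that are not lymphocyte-like held acinar markers at 7335 to 19244 CPM, duct markers at 2535 to 3686 CPM, macrophage markers at 5102 to 8165 CPM and fibroblast markers at 2131 to 5959 CPM. They are a mixture, and the source of their keratin UMIs was not tested.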

How the results depend on the processing

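No paired analysis was possible because the labels give the mice of the 2 time points no shared number. The calls over time depended on the mice: leaving out a mouse gave 0 to 5 keratin and type pairs in place of 0, 0 to 2 pairs in the subtypes and 0 to 2 keratins for the difference between Acinar and MucinDuctal cells, where the lone mouse of a time point is assumed to vary like the other. Without the filter on low counts 2 of 42 keratin pairs passed in the types (Krt20 in Acinar and Acinar/MucinDuctal cells). In the subtypes 1 of 40 passed (Krt7 in Tuft-3 cells). Without 2-week mouse 1, Krt20 changed by -5.14 in Acinar and by -7.65 in Acinar/MucinDuctal cells. Krt7 changed by -0.97 in Acinar.Prolif, Krt19 by -0.68 in EEC and Krt23 by 1.03 in Ductal-like cells. These pairs were picked because they stood out in that fit. Without 2-week mouse 2, pairs picked in the same way had the opposite sign for Krt19: Acinar.Prolif (0.94) and Ductal-like (1.22). In the subtypes without 2-week mouse 1, those picked were Krt7 in Tuft-3 (-0.93) and Krt19 in Ppy+ cells (-1.66). Over all genes of the 7 subtypes, 32 pairs were called of 56750, against 459 of 112789 without the filter. Over all genes of the 7 types, 1 pair was called of 79056, against 129 of 103729 by DESeq2 and 892 of 129583 without the filter. Of single changes, chosen after their values were seen, 3 in MucinDuctal cells reversed without 2-week mouse 2: Krt20 to 1.92 (range over mice left out -8.35 to 1.92), Krt19 to 0.77 (-1.40 to 0.77) and Krt7 to 0.46 (-1.49 to 0.46).

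Pairs of keratin and type whose shares of positive cells did not overlap numbered 15 of 42. They numbered 8 after thinning by random draws, 11 at 2 or more UMIs and 18 to 36 without a mouse. Among the 36 pairs that passed the filter on low counts, the numbers were 13, 6 (thinning by expected value), 10 and 17 to 32. Over all gene and type pairs that passed it, 59.1%, 38.4%, 54.8% and 75.1 to 84.3% did not overlap under the same settings. Leaving enzymes out of the totals took the log2 ratios to Acinar cells to 0.49 (Krt7), 0.65 (Krt8), 0.92 (Krt18), 2.30 (Krt19) and 2.24 (Krt23) in MucinDuctal cells, to 1.40, 3.76, 3.22, -1.21 and 3.25 in Tuft cells and to 3.76, 1.42, 0.013, -0.64 and -0.70 in EEC cells, by construction, since Acinar cells hold most enzyme UMIs. A pseudocount of 10 took Krt23 to 2.09 in MucinDuctal and 3.01 in Tuft cells, and thinning took Krt23 in EEC cells to -0.032. Krt19 in Tuft cells ran from -0.315 to 0.094 with a mouse left out. Of 8 shares of the keratin UMIs recomputed as averages over cells, 3 moved by more than their SD, to 54.5% for Krt18 in Tuft and to 26.3% for Krt7 and 32.4% for Krt18 in EEC cells. Counting precision was lowest for Krt20, with 21, 333, 4 and 24 UMIs in the 4 mice, of 60224505 to 90547790 in all.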
